A study of Mus musculus with 34 samples.

Results

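The 7 sirtuin genes of the mouse, Sirt1 to Sirt7, were followed through the end of spermatogenesis in lists of open DNA and of nucleosome positions. An interval of a list was counted for a gene when it overlapped the annotated gene or the 1 kb beyond either end by at least 1 bp. They are 7 of 21887 protein-coding genes placed on the 19 numbered chromosomes, X or Y, and 492 of the 3711338 intervals in all lists fell in their windows. Open DNA was mapped by ATAC-seq, in which the transposase Tn5 cuts accessible DNA, and the authors deposited, per group, 1 list of subnucleosome peaks and 1 list of nucleosome calls. The 34 libraries formed 12 groups, 4 stages in 3 backgrounds. By stage, libraries came from meiotic cells (MS), round spermatids (RS), elongating spermatids (ES) or mature sperm (Sp).

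The cKO mice were C57BL6 GCN5-/-, with floxed alleles of Gcn5, the histone acetyltransferase encoded by Kat2a, removed by a Cre driven from Stra8, which is switched on in germ cells entering meiosis. The SV129 mice had intact Gcn5, were adults of 8 to 12 weeks, and gave testes of 11 animals to each cell collection. The WT mice were C57BL6 GCN5+/+. No group was treated, and ages of the C57BL6 animals are not given in the sources used here. Each cKO and WT group had 2 libraries. SV129 had 6 at Sp and 4 at each other stage, the 4 being 2 technical repeats of each of 2 biological replicates. Fractions were pooled at a purity of at least 85%, and sperm came from the cauda epididymis after lysis of somatic cells. Each reaction held 100000 cells at MS and Sp and 200000 at RS and ES, with the same Tn5 amounts listed at all stages. Between stages that differ in this number, its part cannot be told apart from stage. SV129 against WT, both with intact Gcn5, is given beside the main cKO against WT differences. With 1 list per group and no values per library there is no replicate error, and no difference below was tested. In a list made from many cells, fewer cells with an open site and a less open site in each cell cannot be told apart.

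Sirtuins remove acetyl or other acyl groups from lysines and consume NAD in doing so, so that they work in the opposite direction to acetyltransferases such as Gcn5. Sirt1, Sirt6 and Sirt7 act mainly in the nucleus on histones and other chromatin proteins, Sirt2 mainly in the cytoplasm on tubulin and other proteins, and Sirt3, Sirt4 and Sirt5 in mitochondria. In spermatids histones become widely acetylated before protamines replace most of them, and mouse germ cells without Sirt1 compact their chromatin poorly. The lists show chromatin at these genes, not their RNA or protein.

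The starts used here come from the RefSeq promoter table (build GRCm38.p6), which lists 250 bases before and 50 after each start. All 7 genes matched, with 9 promoters, because Sirt3 has 2 listed starts 440 bp apart and Sirt6 has 2 that lie 244 bp apart. The 5 promoters printed next carry the differences described below: those of Sirt1, Sirt5 and Sirt6 had a WT peak at MS and no cKO peak, and those of Sirt2 and Sirt3 had a peak in sperm. Each reads 5′ to 3′ on the gene's strand, with the bases under a subnucleosome peak in capitals. The capitals mark the WT MS peak in Sirt1 (chr10:63338986-63339285, minus strand), Sirt5 (chr13:43365285-43365584, plus strand) and the outer start of Sirt6 (chr10:81627517-81627816, minus strand), the WT Sp peak in Sirt2 (chr7:28766502-28766801, plus strand), and the SV129 Sp peak in the outer start of Sirt3 (chr7:140882260-140882559, minus strand).
Sirt1: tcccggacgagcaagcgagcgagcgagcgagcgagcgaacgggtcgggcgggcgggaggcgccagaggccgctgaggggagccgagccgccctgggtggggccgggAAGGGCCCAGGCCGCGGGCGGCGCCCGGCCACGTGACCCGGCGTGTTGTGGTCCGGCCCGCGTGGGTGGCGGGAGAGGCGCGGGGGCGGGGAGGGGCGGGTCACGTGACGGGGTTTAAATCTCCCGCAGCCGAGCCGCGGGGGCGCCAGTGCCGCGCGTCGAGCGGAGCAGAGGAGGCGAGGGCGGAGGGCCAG
Sirt5: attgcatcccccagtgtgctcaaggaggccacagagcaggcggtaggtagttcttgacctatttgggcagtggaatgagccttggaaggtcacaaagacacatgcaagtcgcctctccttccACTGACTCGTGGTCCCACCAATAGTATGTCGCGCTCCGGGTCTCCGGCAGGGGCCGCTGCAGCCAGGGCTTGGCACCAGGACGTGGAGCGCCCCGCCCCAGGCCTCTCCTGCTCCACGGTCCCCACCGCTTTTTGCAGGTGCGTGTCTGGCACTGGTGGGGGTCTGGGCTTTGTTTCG
Sirt6: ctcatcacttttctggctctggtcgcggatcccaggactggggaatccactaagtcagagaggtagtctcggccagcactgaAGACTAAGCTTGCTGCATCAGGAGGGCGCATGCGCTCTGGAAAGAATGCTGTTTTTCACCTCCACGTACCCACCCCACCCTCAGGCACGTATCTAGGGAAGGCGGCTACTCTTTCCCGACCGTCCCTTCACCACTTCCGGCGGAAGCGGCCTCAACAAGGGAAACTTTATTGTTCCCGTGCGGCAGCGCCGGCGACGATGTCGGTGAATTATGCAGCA
Sirt2: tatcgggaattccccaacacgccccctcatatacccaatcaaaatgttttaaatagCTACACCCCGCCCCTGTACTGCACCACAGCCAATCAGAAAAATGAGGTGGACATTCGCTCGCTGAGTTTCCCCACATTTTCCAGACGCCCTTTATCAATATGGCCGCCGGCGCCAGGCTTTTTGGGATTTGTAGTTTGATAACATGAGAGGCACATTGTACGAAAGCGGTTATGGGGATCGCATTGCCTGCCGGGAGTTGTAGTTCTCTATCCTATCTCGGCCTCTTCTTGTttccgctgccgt
Sirt3: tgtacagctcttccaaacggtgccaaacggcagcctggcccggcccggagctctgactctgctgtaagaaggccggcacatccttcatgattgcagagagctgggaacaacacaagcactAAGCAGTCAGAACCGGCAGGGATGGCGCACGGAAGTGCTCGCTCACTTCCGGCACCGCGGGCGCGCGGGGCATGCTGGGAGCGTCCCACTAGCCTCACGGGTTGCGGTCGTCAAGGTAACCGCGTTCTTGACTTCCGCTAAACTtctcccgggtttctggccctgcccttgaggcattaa

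The Sirt1 promoter was the richest in CpG of the 9, with 47 CpG dinucleotides, a GC content of 79.0% and an observed to expected CpG ratio of 1.09. Of 21263 promoters of protein-coding genes, 98.2% had fewer CpG. The Sirt5 promoter had 15 CpG and the lowest ratio of the 9, 0.52, the only one under 0.6 among them. The other 7 promoters had ratios of 0.746 to 0.929, against a median of 0.567 over all promoters. Motifs were searched as exact letters on both strands, and a match is a description of the sequence only. The GC box GGGCGG stood in 6 of the 9 promoters, against 46.2% of all promoters. CCAAT stood in 3, those of Sirt2, Sirt5 and the inner start of Sirt3 (38.2% of all). CACGTG stood in that of Sirt1 alone among the 9, with 2 matches, both in the capitals printed above (7.84% of all). CCGGAAGT stood in the outer promoters of Sirt3 and Sirt6 (5.15% of all), and GCATGCGC in the outer promoter of Sirt6 and that of Sirt7 (3.52% of all). No promoter of the 9 held TGACGT (8.49% of all), TATAAA (12.6%) or AAGATGGC (3.05%). Matches to different motifs shared no base in any of the 9.

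Several windows hold a second gene, and an interval there belongs to both. The start of Sirt2 lies 108 bp from that of Nfkbib, an inhibitor of NF-kappaB, on the opposite strand. The outer start of Sirt3 lies 85 bp from that of Psmd13, a proteasome subunit. The listed start of Sirt4 lies 153 bp from that of the lncRNA Gm42007 and 5967 bp inside the upper annotated end, where the snRNA genes Gm24265 and Gm24407 are annotated. Sirt6 begins 28 bp from the annotated gene Ankrd24. Sirt7 lies 102 bp from Mafg at its start and 423 bp from Pcyt2 at its far end. The lncRNA gene Gm19897 lies inside Sirt2, the miRNA gene Mir6936 inside Sirt7, and Ric8a overlaps the far end of Sirt3. Rinl lies 208 bp beyond the far end of Sirt2. Beyond the upper end of Sirt4 lie the pseudogene Gm13836, at 1536 bp, and Pxn, at 1705 bp. Sirt1 and Sirt5 share their starts with no annotated neighbour, the nearest gene to Sirt1 being Herc4, 1123 bp beyond its far end.

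The lists differ in length, and this bears on every count below. The subnucleosome lists held 16087 peaks in cKO, 33060 in SV129 and 35822 in WT at MS. At RS they held 4075 in cKO, 29243 in SV129 and 56480 in WT, at ES 473 in cKO, 787 in SV129 and 562 in WT, and at Sp 1127 in cKO, 10715 in SV129 and 3024 in WT. The nucleosome lists held 199111 to 329678 calls at MS, 207681 to 253621 at RS and 480320 to 591189 at ES. At Sp they held 347951 calls in cKO, 13615 in SV129 and 8628 in WT. Read depth is unknown. Kat2a, the targeted gene, had 1 subnucleosome peak in each MS list, and at RS none in cKO or SV129 and 1 in WT. A peak there is no check of the deletion, since the floxed exons are not given in the sources used here. Of 8 meiotic marker genes, 7 in cKO, 8 in SV129 and 8 in WT had a peak at MS, and 2, 8 and 8 at RS. Of 8 round spermatid markers, none in cKO, 8 in SV129 and 7 in WT had a peak at RS, and 3, 4 and 5 at MS. Over all genes the shares with a peak at MS were 44.9% in cKO, 60.5% in SV129 and 63.4% in WT. At RS they were 14.9%, 55.8% and 64.1%. In SV129 and WT the meiotic markers thus did not separate MS from RS. Over 6 Sertoli, 6 Leydig and 6 blood cell markers together, none had a peak in cKO at MS or RS, 3 in SV129 at MS and 4 at RS, and 4 in WT at MS and 5 at RS. Of 6 spermatogonial markers, 2 in cKO, 3 in SV129 and 4 in WT had a peak at MS, and 0, 4 and 5 at RS. Of 6 epididymal epithelium markers, 1 in cKO, 2 in SV129 and 1 in WT had a peak at MS, and 0, 1 and 2 at RS. The part of such other cells in the results was not tested.

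At MS, all 7 sirtuin genes had a subnucleosome peak in SV129 and in WT, and 5 of 7 had one in cKO. Over all protein-coding genes the shares were 44.9% in cKO, 60.5% in SV129 and 63.4% in WT. Within 500 bp of a listed start, 4 of the 7 had a peak in cKO, 7 in SV129 and 7 in WT, against 36.7%, 49.2% and 51.9% of the 17492 genes with a listed start. All promoters of the 7 but that of Sirt5 reach a CpG ratio of 0.6, and the background among such starts is higher. Of 8896 genes with a listed start at a CpG ratio of 0.6 or more, 60.7% in cKO, 78.9% in SV129 and 82.7% in WT had a peak there at MS. Peaks in the 7 windows numbered 8 in cKO, 12 in SV129 and 13 in WT, and covered 1331 bp in cKO, 3057 bp in SV129 and 3940 bp in WT. Over all gene windows the number of peaks in cKO was 0.52 of that in WT, and over the sirtuin windows 0.615, while for SV129 the ratios to WT were 0.942 and 0.923.

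Among the nuclear sirtuins, Sirt1, a deacetylase of histones and of p53, had no peak in cKO at MS, 2 in SV129 and 2 in WT. Distances are given from the listed start to the centre of a peak, and negative ones lie before the start. The WT peaks were centred at -15 and 545 bp and were 258 and 265 bp wide, and those of SV129 at 92 and 552 bp, 230 and 83 bp wide. Sirt6, a histone deacetylase that acts at telomeres and in DNA repair, had a start peak at MS in SV129 (centre -74 bp, 197 bp wide) and in WT (-57 bp, 223 bp wide) and none in cKO. A second peak beyond its far end, 6274 to 6312 bp from the inner start over all lists and 6801 bp from the nearest other annotated gene, was present in cKO, SV129 and WT. Sirt6 therefore counts as open in cKO only through that distal peak. Sirt7, a nucleolar deacetylase of histones, had a start peak of 145 bp in cKO, 369 bp in SV129 and 378 bp in WT, the cKO peak being the narrowest. Its far peak, over the upper end of Pcyt2, was 217 bp wide in cKO, 421 bp in SV129 and 465 bp in WT.

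Sirt2, a deacetylase of tubulin, had 2 peaks in cKO at MS, centred at -227 and 15 bp and 173 and 135 bp wide. Both lie inside the stretch that a single peak of 472 bp covered in WT, and SV129 had a single peak of 457 bp. A count of peaks thus rises here in cKO while the covered length is smaller. Of the mitochondrial sirtuins, Sirt3, the main deacetylase of mitochondria, had peaks at both starts in all 3 backgrounds. At its outer start the peak was 170 bp wide in cKO, 318 bp in SV129 and 243 bp in WT, and at its inner start 89 bp in cKO, 151 bp in SV129 and 231 bp in WT. Sirt4, an ADP-ribosyltransferase and lipoamidase of mitochondria, had a start peak of 205 bp in cKO, 270 bp in SV129 and 271 bp in WT. Near its upper annotated end, about the snRNA genes, cKO had no peak, SV129 had 1 at -5790 bp, and WT had 2 at -5199 and -5815 bp. Sirt5, which removes succinyl and malonyl groups in mitochondria, had no peak in cKO, 1 of 152 bp in SV129 and 1 of 263 bp in WT.

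**Figure D1:**
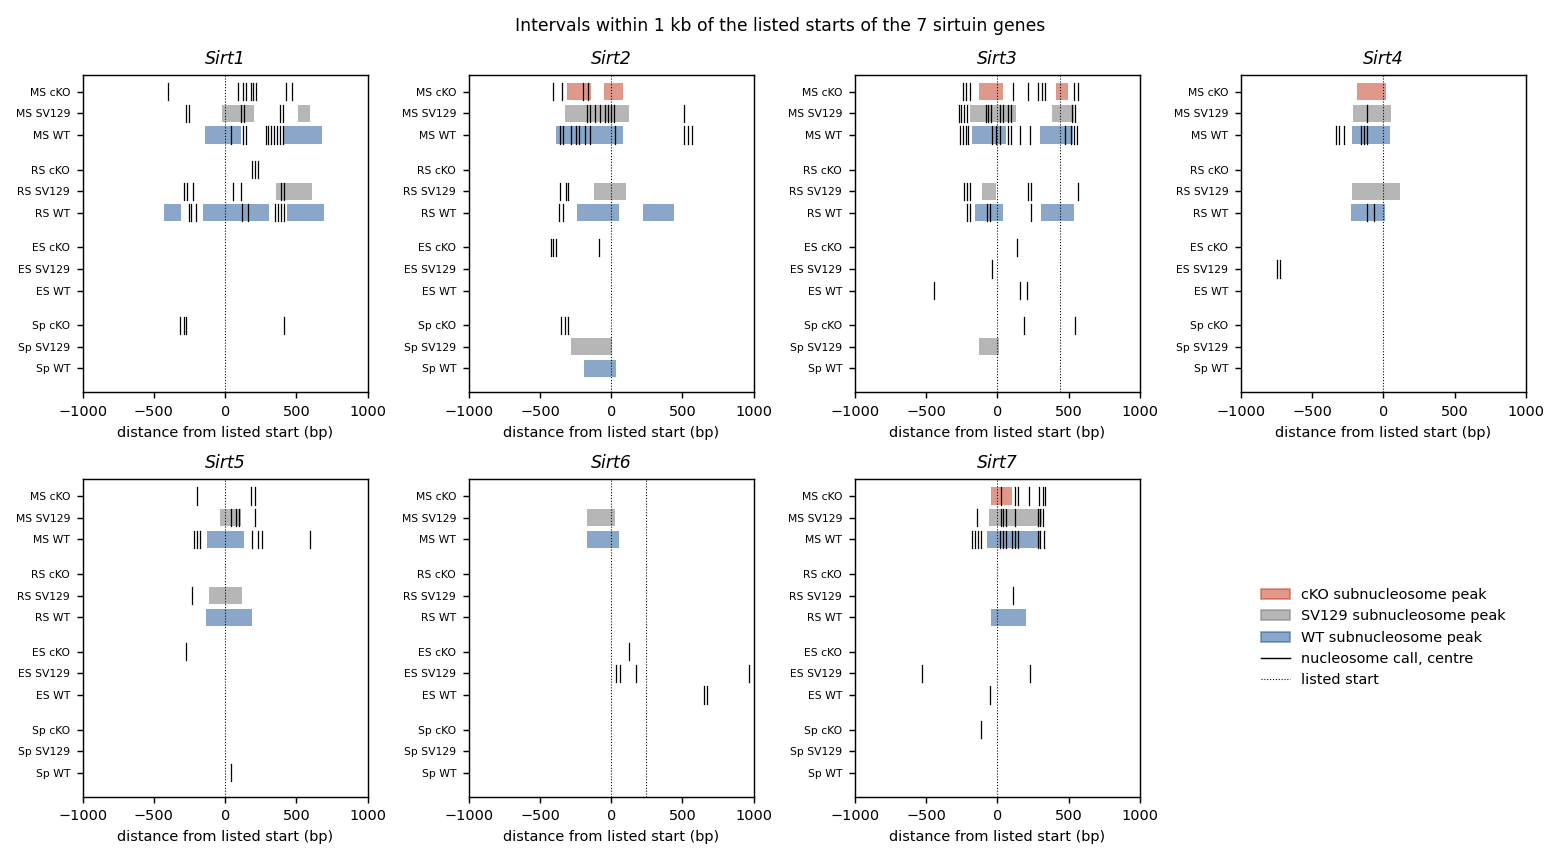
Subnucleosome peaks (bars) and centres of nucleosome calls (black ticks) within 1 kb of the outermost listed start of each sirtuin gene, in bp along the direction of transcription, with 1 row per stage and background and dotted lines at listed starts. At MS the cKO rows lack a bar at the starts of Sirt1, Sirt5 and Sirt6, at RS the cKO rows have no bar, at ES no row has a bar, and at Sp bars remain at Sirt2 in SV129 and WT and at Sirt3 in SV129.

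Every cKO peak of the 7 windows at MS lay over a WT peak (8 of 8, against 97.6% of cKO peaks in all gene windows), whereas 7 of the 13 WT peaks lay over a cKO peak (47.6% in all gene windows). The deposited score of a WT peak, on a scale that is not stated, separated these. The 7 WT peaks with a cKO counterpart had scores of 25.7 to 63.8, and the 6 without had 12.7 to 24.1. The 6 were the peaks of Sirt1 (23.3 and 24.1), Sirt5 (23.8), the start of Sirt6 (20.4) and the upper end of Sirt4 (12.7 and 19.4). The WT list as a whole shows the same order: 75.2% of its 16114 peaks scoring above 24.1 overlapped a cKO peak, and 14.9% of the 19708 at or under it did. Of WT-occupied genes, 29.6% had no peak in their window in cKO at MS, and of the 7 sirtuin genes Sirt1 and Sirt5 did. By start windows the share was 29.7%, and Sirt6 joins them. SV129 lacked none of the 7, against 8.53% of WT-occupied genes by gene window and 8.59% by start window. When the WT list was cut to the length of the cKO list by highest score, no sirtuin gene had a peak in WT and none in cKO, so the absence of peaks at Sirt1 and Sirt5 in cKO cannot be told apart from the shorter cKO list. For Sirt1 this hangs on the exact cut. The cut kept 16087 peaks, and 16114 score above its peak of 24.1, which thus falls just outside.

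**Figure D2:**
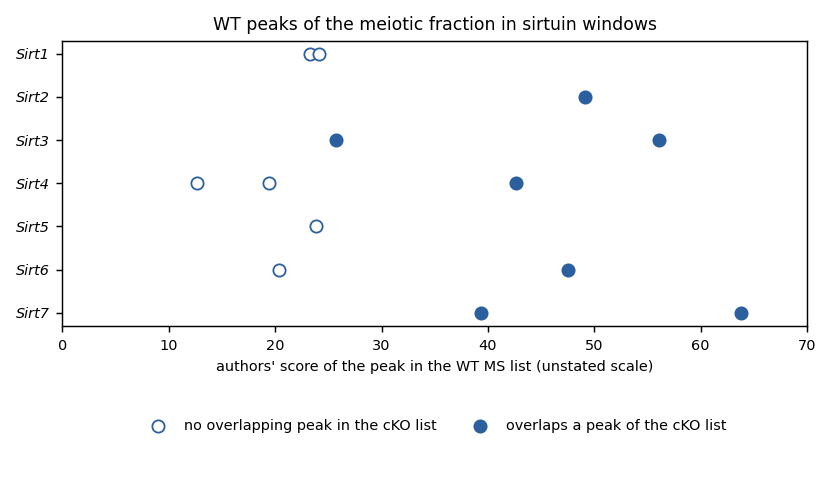
The 13 WT subnucleosome peaks of the MS fraction in sirtuin windows by the score the authors deposited (x axis, scale not stated) and gene (y axis). Open points, without an overlapping cKO peak, run from 12.7 to 24.1, and filled points, with one, run from 25.7 to 63.8.

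At RS, no sirtuin gene had a subnucleosome peak in cKO, while all 7 had one in SV129 and in WT. The background was 14.9% of all genes in cKO, 55.8% in SV129 and 64.1% in WT. By start windows the count was 0 of 7 in cKO, 5 in SV129 and 6 in WT, against 12.7%, 44.0% and 50.5% of genes. Of CpG-rich starts, 22.4% in cKO, 70.8% in SV129 and 79.0% in WT had a peak at RS. The windows held 9 peaks over 1687 bp in SV129 and 14 over 3343 bp in WT. Of WT-occupied genes, 76.7% had no cKO peak at RS, and all 7 sirtuin genes were among them, while 15.2% had no SV129 peak and none of the 7 was among those. The 14 WT peaks had scores of 6.71 to 39.7, and 9.76% of WT RS peaks in all gene windows overlapped a cKO peak. The highest WT scores at RS were those of the Sirt4 start (39.7), the far peak of Sirt7 (37.8) and the outer start of Sirt3 (34.6). With the WT list cut to the 4075 highest scores, the length of the cKO list, no sirtuin gene had a peak in WT either.

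Within the intact backgrounds the round spermatid peaks mostly stood where meiotic ones had. Of the 14 WT RS peaks, 11 overlapped a WT MS peak, and 11 of the 13 WT MS peaks overlapped an RS peak. In SV129 these were 8 of 9 and 8 of 12. In all gene windows the shares were 53.4% and 70.2% in WT, and 66.0% and 55.8% in SV129. Merging overlapping peaks of all lists gave 16 open sites from 59 peaks, of which 8 were open at MS and RS in both SV129 and WT, 7 were open in cKO at MS and 8 hold a listed start. Sirt1 was covered most widely at RS in WT, with peaks of 464, 262 and 124 bp centred at 75, 565 and -370 bp, where SV129 had 1 of 258 bp at 484 bp. The start peak of Sirt6 was absent at RS in SV129 and in WT, and 18.2% of starts open at MS in SV129 and 11.3% of those in WT had no RS peak. At Sirt6 a peak in the body at 3693 bp in SV129 and 3684 bp in WT was present at RS and in no MS list. The start peak of Sirt7 was absent at RS in SV129 and 248 bp wide in WT, while its far peak measured 163 bp in SV129 and 210 bp in WT. Sirt2 had a start peak of 222 bp in SV129, against peaks of 301 and 221 bp in WT at -93 and 333 bp. At Sirt3, SV129 had 104 bp at the outer start only, and WT had 200 bp there and 231 bp at the inner start. Sirt5 had a peak of 228 bp in SV129 and 326 bp in WT, and Sirt4 a start peak of 338 bp in SV129 and 243 bp in WT.

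At ES no sirtuin gene had a subnucleosome peak in cKO, SV129 or WT. The background was 0.535% of all genes in cKO, 0.964% in SV129 and 0.507% in WT. In sperm, 0 of 7 had a peak in cKO, 2 in SV129 and 1 in WT, against 4.15%, 31.6% and 11.6% of all genes. Sirt2 had a peak of 288 bp centred at -136 bp in SV129 and of 232 bp at -79 bp in WT, both over its own start and that of Nfkbib. Sirt3 had a peak of 144 bp at -58 bp in SV129, over its outer start and that of Psmd13, and none in cKO or WT. These are the capitals of the Sirt2 and Sirt3 promoters printed above. Both genes with a sperm peak share a start region with a neighbour on the opposite strand, and the peak cannot be assigned to either gene of the pair. Of genes with a WT peak in sperm, 81.9% had none in cKO, and Sirt2 was among them, while 19.3% had none in SV129, and Sirt2 was not. With the WT Sp list cut to the length of the cKO list by score, Sirt2 had no peak in WT.

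**Figure D3:**
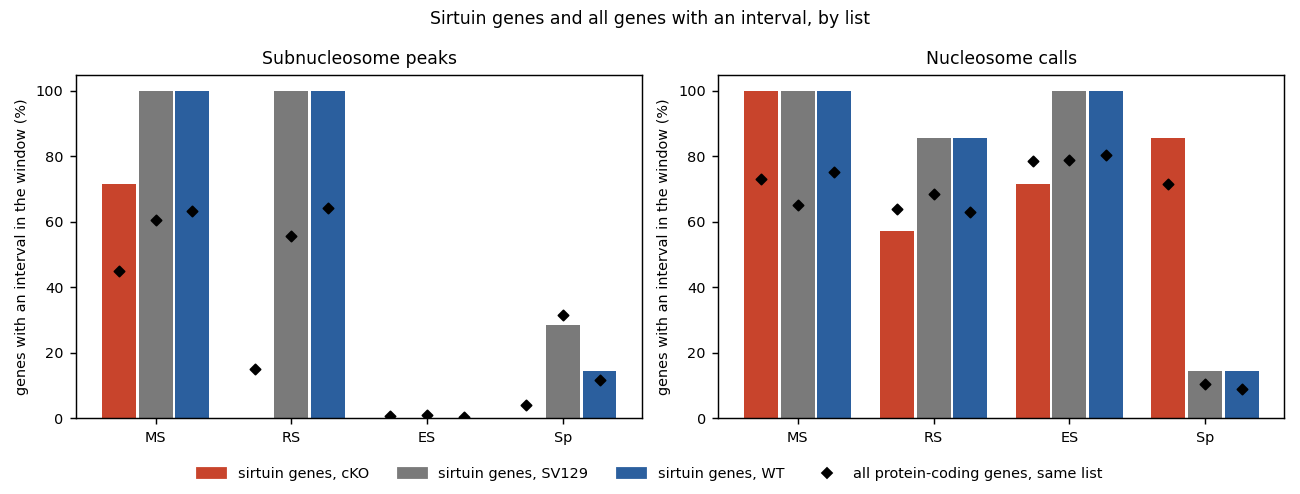
Share of the 7 sirtuin genes (bars, %) and of all 21887 protein-coding genes (diamonds, %) with at least 1 interval in the gene or within 1 kb of it, by stage on the x axis, for subnucleosome peaks and nucleosome calls. Bars lie above their diamonds for peaks at MS, where the diamonds stand at 44.9% in cKO, 60.5% in SV129 and 63.4% in WT, and the cKO bar for peaks at RS is 0 beside a diamond at 14.9%.

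Nucleosome calls, each 150 bp wide, were present at MS in all 7 genes in cKO, SV129 and WT, against 73.2%, 65.1% and 75.1% of all genes. They numbered 56 in cKO, 66 in SV129 and 102 in WT. Calls of a list often overlap each other. Merged where they overlap or touch, they formed 21 separate stretches in cKO, 19 in SV129 and 26 in WT. All 7 genes had fewer calls in cKO than in WT, as did 52.8% of all genes, and 6 of 7 had fewer in SV129 than in WT, as did 60.0% of all genes. By stretches, 6 of 7 (41.9% of all genes) had fewer in cKO, and Sirt1 had more, with 5 in cKO, 3 in SV129 and 3 in WT. In SV129, 4 of 7 (55.3% of all genes) had fewer stretches than in WT. The ratio of cKO to WT calls was 0.549 over the sirtuin windows and 0.809 over all gene windows. For SV129 to WT it was 0.647 and 0.632. The MS lists held 316843 calls in cKO, 199111 in SV129 and 329678 in WT. The SV129 ratio thus lay near its background in a shorter list, and the cKO ratio lay below its own. The cause of either was not tested.

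Sirt7 held the most calls at MS, with 15 in cKO, 24 in SV129 and 31 in WT, spread over its start and the region toward Pcyt2. Sirt3 held 13 in cKO, 13 in SV129 and 22 in WT. Sirt1 held 12 in cKO, 6 in SV129 and 13 in WT. These 3 genes account for most of the calls in each list. Sirt2 held 4 in cKO, 9 in SV129 and 11 in WT, and Sirt4 held 6 in cKO, 5 in SV129 and 14 in WT. Sirt5 held 3 in cKO, 4 in SV129 and 7 in WT. Sirt6 had the fewest calls in WT, with 3 in cKO, 5 in SV129 and 4 in WT, all of them beyond its far end and none near its starts. Within 500 bp of a listed start lay 58.9% of the calls in cKO, 60.6% in SV129 and 56.9% in WT, against 24.3%, 43.7% and 32.6% in all gene windows. The sirtuin windows span 8.01 to 31.8 kb. A fixed 500 bp takes up more of a short window, and window length was not matched.

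At Sirt5 and Sirt1, which had no cKO peak at MS, the cKO list had nucleosome calls near the start, while at Sirt6, whose start also lacked a cKO peak, no list had a call near a start at MS. At Sirt5 the cKO calls were centred at -199, 181 and 208 bp, beside WT calls at -219, -199, -179, 186, 228 and 256 bp near the start, on both sides of the WT peak centred at 3 bp. SV129 calls at Sirt5 were centred at 41, 76, 96 and 211 bp. At Sirt1 the cKO list had, among its 12 calls, those at 89, 129, 149, 179, 199 and 219 bp, where WT had 44, 124 and 144 bp and SV129 had 114 and 134 bp. WT had a further 7 calls at 284 to 404 bp, between its peaks at -15 and 545 bp. In that region SV129 had calls at 384 and 404 bp and cKO at 429 and 469 bp. Before the start, cKO had a call at -398 bp and SV129 had calls at -276 and -256 bp, and WT had none. Of all calls in the 7 windows, 3 of 56 in cKO had their centre inside a subnucleosome peak of the same list, 42 of 66 in SV129 and 41 of 102 in WT. These shares are 5.36% in cKO, 63.6% in SV129 and 40.2% in WT, against 5.81%, 27.2% and 20.5% in all gene windows. The cKO share lies near its background, in a list with fewer peaks.

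**Figure D4:**
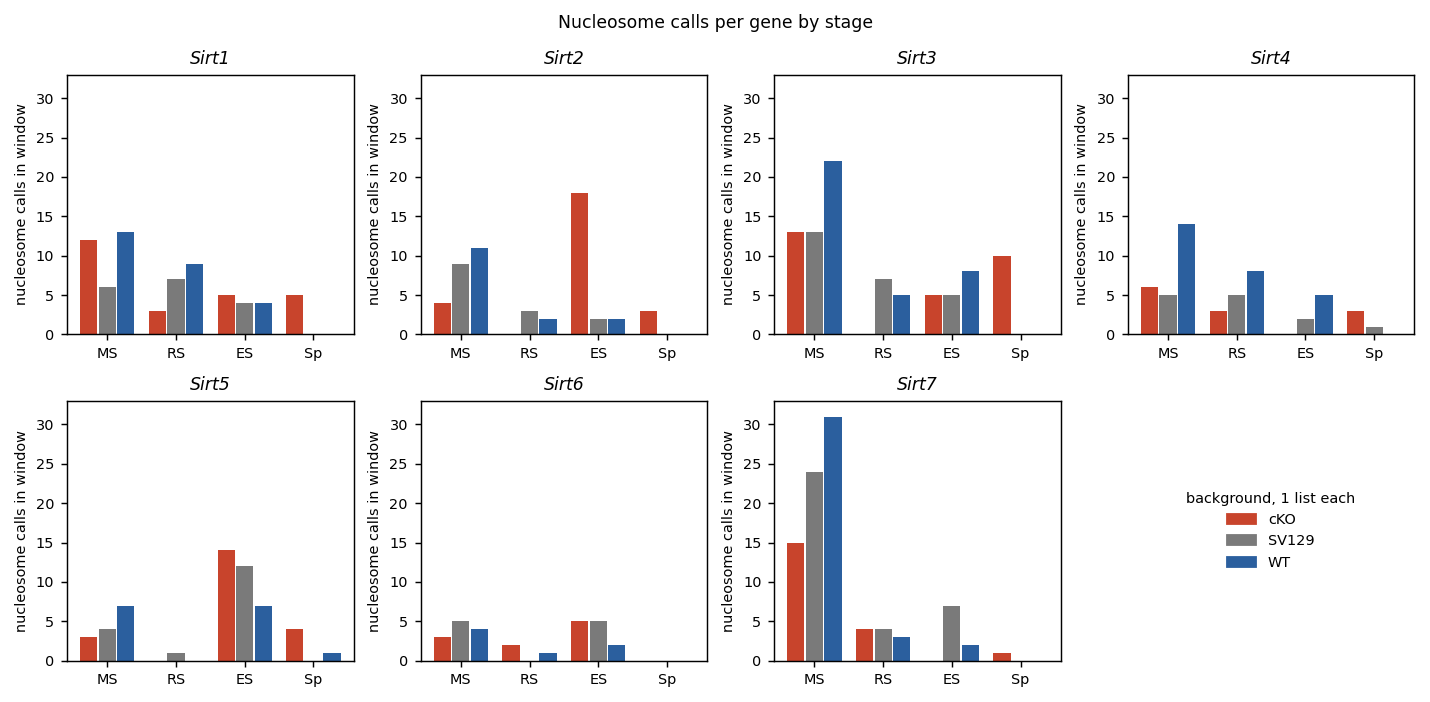
Number of nucleosome calls in the window of each sirtuin gene (y axis) by stage (x axis), with bars for cKO, SV129 and WT and 1 list per bar. Sirt7 at MS has 15 in cKO, 24 in SV129 and 31 in WT, Sirt2 at ES has 18 in cKO beside 2 in SV129 and 2 in WT, and at Sp bars stand in cKO for 6 genes.

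At RS, 4 of 7 genes had a nucleosome call in cKO, 6 in SV129 and 6 in WT, against 63.9%, 68.4% and 63.1% of all genes. The calls numbered 12 in cKO, 27 in SV129 and 28 in WT, and the stretches 4 in cKO, 13 in SV129 and 11 in WT. The ratio of cKO to WT calls was 0.429 over the sirtuin windows and 0.791 over all gene windows, and for SV129 to WT 0.964 and 1.01. By stretches it was 0.364 and 0.831 for cKO, and 1.18 and 1.12 for SV129. Sirt2 and Sirt3 had no call in cKO, an absence shared by 19.1% of all genes with a WT call. SV129 had none at Sirt6, which had 1 call in WT, as in 8.47% of all genes with a WT call. Sirt2 had 3 in SV129 and 2 in WT, and Sirt3 had 7 in SV129 and 5 in WT. At Sirt1 the 3 cKO calls lay at 189, 209 and 229 bp, while the 9 WT calls stood in groups at -256 to -201 bp, 119 to 159 bp and 354 to 414 bp, with the 7 SV129 calls at -286 to -226, 54 to 114 and 394 to 414 bp. The intact backgrounds thus placed calls in like positions before, at and after the Sirt1 start. The centres of the cKO calls lay between the later groups, but all 3 cKO calls overlapped WT calls there. Sirt4 had 3 calls in cKO, 5 in SV129 and 8 in WT, and cKO calls at -5884 to -5829 bp overlapped those of both intact lists near the upper annotated end. All 12 cKO calls at RS overlapped a cKO MS call, against 17.0% in all gene windows. Of the 56 cKO MS calls, 14 overlapped a cKO RS call (13.2% in all gene windows). In WT 25 of 28 RS calls overlapped an MS call (50.1% in all gene windows), and in SV129 23 of 27 (41.6%). Of the cKO RS calls 6 of 12 overlapped a WT RS call (17.0% in all gene windows), and of SV129 RS calls 23 of 27 did (48.0%). In the other direction, a cKO call was overlapped by 7 of 28 WT calls (19.2% in all gene windows), and an SV129 call by 25 of 28 (51.8%).

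At ES most nucleosome calls of the sirtuin genes lay in gene bodies. Calls were present in 5 of 7 genes in cKO, 7 in SV129 and 7 in WT, against 78.5%, 78.9% and 80.3% of all genes. Of 47 calls in cKO 34 lay in gene bodies, of 37 in SV129 27 did, and of 30 in WT 20 did. Bodies were bounded by the annotated ends. They therefore include Sirt4 calls before its listed start, at -729 and -749 bp in SV129 and at -5299 to -5359 bp in WT. The share of calls in bodies was not compared with all gene windows, so whether it is particular to the sirtuin genes was not tested. Near starts lay 7 of 47 in cKO, 5 of 37 in SV129 and 6 of 30 in WT. In all gene windows 4.65% of calls did in cKO, 4.34% in SV129 and 3.78% in WT, a lower share in each list. Window length was again not matched. Sirt2 had 18 calls in cKO, in 10 stretches between -426 and 20184 bp, against 2 calls in SV129 and 2 in WT. Some of the cKO calls, among them those at 9834 and 13711 bp, also lie in the lncRNA gene Gm19897. Sirt5 had 14 calls in cKO, 12 in SV129 and 7 in WT. Sirt4 and Sirt7 had none in cKO (11.4% of all genes with a WT call), where Sirt4 had 2 in SV129 and 5 in WT and Sirt7 had 7 in SV129 and 2 in WT. Of all genes with a WT call 10.7% had none in SV129, and none of the 7 was among them. Most calls did not coincide between lists: 3 of 47 cKO calls overlapped a WT call (8.04% in all gene windows) and 5 of 37 SV129 calls did (8.78%). Of 30 WT calls, 4 lay over a cKO call (7.57% in all gene windows) and 2 over an SV129 one (8.7%). The highest share was that of SV129 calls over a cKO call, 9 of 37 (10.2% in all gene windows). In the other direction 4 of 47 cKO calls lay over an SV129 call (10.6%). Counts per gene at ES therefore rest mostly on positions that the lists with intact Gcn5 did not share either. Over the 7 windows the ratio of cKO to WT calls was 1.57 at ES, against 0.973 over all gene windows, and that of SV129 to WT calls 1.23, against 0.924. Without Sirt2 the calls numbered 29 in cKO, 35 in SV129 and 28 in WT. The stretches at ES numbered 26 in cKO, 22 in SV129 and 18 in WT, and without Sirt2 16 in cKO, 20 in SV129 and 17 in WT. By stretches, 4 of the 7 genes had fewer in cKO than in WT and 3 had more.

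In sperm, 6 of 7 genes had a nucleosome call in cKO, 1 in SV129 and 1 in WT, against 71.7%, 10.4% and 8.79% of all genes. The cKO calls numbered 26, in 12 stretches. Sirt3 had 10 calls, Sirt1 had 5, Sirt5 had 4, Sirt2 and Sirt4 had 3 each, Sirt7 had 1 and Sirt6 had none. SV129 had 1 call, at Sirt4, and WT had 1, at Sirt5. More calls in cKO than in WT were counted for 6 of the 7 genes and for 70.9% of all genes, against 1 of 7 and 8.62% for SV129. The whole cKO list holds 347951 calls beside 8628 in WT. Of the 26 cKO calls, 38.5% lay within 500 bp of a listed start, against 9.69% in all gene windows, with window length not matched here either. At Sirt1 they lay at -318, -291, -271 and 412 bp, and at Sirt2 at -356, -326 and -306 bp. The Sirt2 calls overlap the SV129 RS calls at -361, -321 and -301 bp and the WT RS calls at -366 and -341 bp. Calls of the cKO MS, WT MS and cKO ES lists overlap them too, so the match is not particular to SV129. None of the 26 overlapped a WT or SV129 sperm call, and in all gene windows 1.53% of cKO calls overlapped a WT call and 2.53% an SV129 call. Of the 26, 5 overlapped a cKO ES call (7.64% in all gene windows), and 5 of the 47 cKO ES calls overlapped one in sperm (4.53%).

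**Figure D5:**
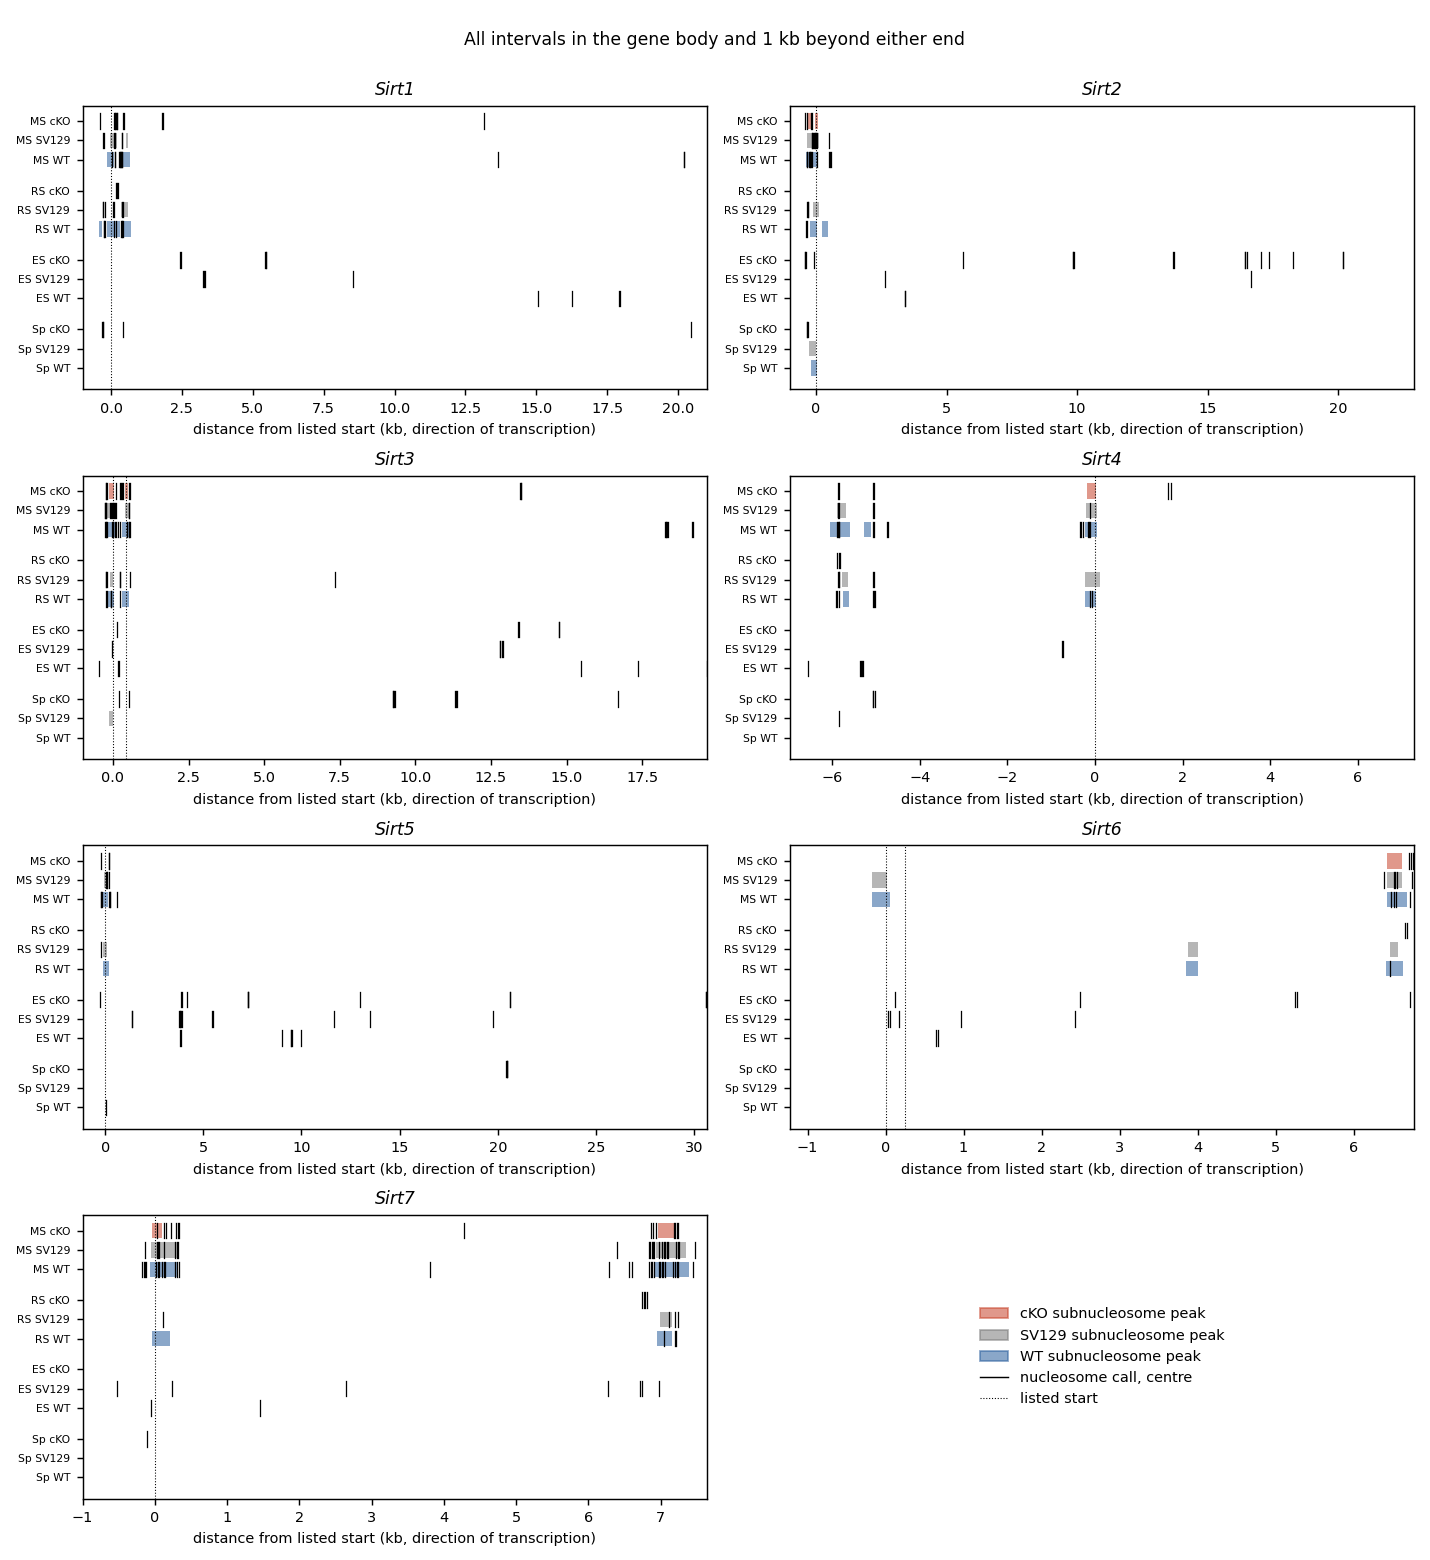
All subnucleosome peaks (bars) and centres of nucleosome calls (black ticks) over each sirtuin gene and 1 kb beyond its ends, in kb from the outermost listed start along the direction of transcription, with 1 row per stage and background. At MS and RS intervals gather at the starts in most lists, in Sirt4 also near the upper annotated end, and in Sirt6 and Sirt7 about the far end. In cKO at RS only Sirt1 has ticks near its start. At ES most ticks lie in the gene bodies, among them 14 of the 18 in Sirt2 of cKO.

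The enzymes that share the work of sirtuins or supply their cosubstrate were described by the same windows. Of 11 classical histone deacetylase genes, which use zinc in place of NAD, 8 in cKO, 9 in SV129 and 11 in WT had a subnucleosome peak at MS, and 2 in cKO, 8 in SV129 and 9 in WT at RS. Over all genes the shares at MS were 44.9% in cKO, 60.5% in SV129 and 63.4% in WT. At RS they were 14.9%, 55.8% and 64.1%. Hdac5, Hdac7 and Hdac8 had a WT peak and no cKO peak at MS, where 29.6% of all WT-occupied genes had none in cKO. At RS this held for Hdac1, Hdac2, Hdac3, Hdac4, Hdac5, Hdac9 and Hdac10, and for 76.7% of all WT-occupied genes. At RS, Hdac6 and Hdac11 had 1 peak each in cKO, 1 each in SV129 and 1 each in WT. Of 14 genes of NAD synthesis and use, 7 in cKO, 9 in SV129 and 8 in WT had a peak at MS, and 5 in cKO, 9 in SV129 and 11 in WT at RS. The 5 with an RS peak in cKO were Nmnat1, Nadsyn1 and Nmrk1, which make NAD or its precursor, and Parp1 and Parp2, poly(ADP-ribose) polymerases that consume it. Nampt, the rate-limiting enzyme of NAD salvage, had no RS peak in cKO, 1 in SV129 and 1 in WT. Nmnat2, Nmnat3, Qprt, Nnmt and Cd38 likewise had an RS peak in WT and none in cKO, as did 76.7% of WT-occupied genes, and Nmnat2 lacked a cKO peak at MS as well. These lists are small, and their shares were read against the same background as the sirtuins, 14.9% of genes in cKO at RS.

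For each sirtuin the 2 genes over 1 Mb away whose covered length followed it most closely over the 24 lists were picked by Pearson's r of log2(covered bp + 1). The lists differ in length, which every gene shares, so high values are common and have no p. The genes were Fmc1 (r = 0.997) and Usp47 (0.997) for Sirt1, Sbds (0.991) and Cdr2 (0.986) for Sirt2, and Fam133b (0.996) and Tmem109 (0.994) for Sirt3. For Sirt4 they were Dbf4 (0.995) and Krit1 (0.984), for Sirt5 Fkbp6 (0.997) and Chd4 (0.939), for Sirt6 Rem1 (0.994) and Nacad (0.989), and for Sirt7 Zrsr1 (0.995) and 9430078G10Rik (0.993). Of these 14 genes, 13 had an interval in as many lists as their sirtuin did, 13 to 16 of 24, and Chd4 had 12 beside 13 for Sirt5. Since the genes were picked on covered length in these same lists, this likeness follows from the choice and is no separate result.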

How the data were processed

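ATAC-seq fragments of 34 libraries were reduced by the authors to 24 lists, 1 nucleosome and 1 subnucleosome list per group, with coordinates in mm10 (GRCm38). Per the submitters' processing notes STAR 2.5.2a and MACS2 2.1.0.20140616 were used, with roles not given. The sources used here do not say how fragments were divided, called and combined over replicates. The score the authors deposited in column 5 has no stated scale. It ranked WT and cKO subnucleosome peaks only, and left out the most common value in 1 alternative for nucleosome calls.

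Gene positions came from the RefSeq gene table and starts and sequences from the RefSeq promoter table of GRCm38.p6, which lists a start for 17492 of 21887 genes. Intervals were counted in Python 3.11.15 with NumPy 2.4.6 and pandas 2.3.3, and the counting was tested on simulated intervals. Places within 500 bp of a listed start or end were assigned by interval centre. All 7 members are named, neighbours by window overlap, and members of the related lists by a peak in 1 of the WT and cKO lists at MS or RS; the deacetylase and NAD genes that kept a cKO peak at RS, and the marker counts, are given as well. Members, lists and rules were chosen with earlier results of these data known. No file holds values per library, so no test, error or depth could be had.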

Additional observations from a re-analysis of the deposited data

Results flagged for a closer look

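The sign of the difference in nucleosome calls between cKO and WT, summed over the 7 sirtuin genes, was not the same at all stages. The difference was -46 at MS (56 in cKO, 102 in WT), -16 at RS (12 and 28), 17 at ES (47 and 30) and 25 at Sp (26 and 1). The ES difference exceeds that at MS by 63 calls and that at RS by 33, and the Sp difference exceeds that at MS by 71 and that at RS by 41. These differences between stages were not tested, since each group has 1 list. SV129 minus WT came to -36, -1, 7 and 0 calls from MS to Sp. In stretches of merged calls, cKO and WT had 21 and 26 at MS, 4 and 11 at RS, 26 and 18 at ES, and 12 and 1 at Sp. The positive difference at ES rests on Sirt2: without it cKO and WT had 29 and 28 calls, and 16 and 17 stretches, where the sign turns. Over all gene windows the ratio of cKO to WT calls was 0.809 at MS, 0.791 at RS and 0.973 at ES. At Sp the whole lists hold 347951 calls in cKO and 8628 in WT, and over all gene windows the ratio is 39.7.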

How the results depend on the processing

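Flanks of 2 kb, or interval centres in place of overlap, moved none of 32 counts of genes by more than 1.5 times. With the gene body alone, nucleosome counts at RS were 2 of 7 in cKO and 3 in WT, and genes with a call in WT and none in cKO numbered 1 at MS and 1 at RS. Within 500 bp of either annotated end, 3 genes had a subnucleosome peak in cKO at MS and 4 had one in WT alone, 3 had a nucleosome call at ES in SV129 and 2 in WT, and 1 had a call in WT and none in cKO at ES and 1 at Sp. With the higher-scoring 50% of each subnucleosome list, the count was 3 in cKO at MS with 4 in WT alone, and 0 in WT at Sp with 0 in WT alone. With WT and cKO lists of equal length by score, WT had 0 of 7 at RS and 0 at Sp, and genes with a peak in WT and none in cKO numbered 0 at MS, 0 at RS and 0 at Sp. Without nucleosome calls at the most common score, SV129 had 0 at Sp and 1 gene had a call in WT and none in cKO there. Chosen after seeing the data, windows of 500 bp around listed starts gave nucleosome counts of 1 in cKO at RS, 3 in SV129 and 3 in WT at ES and 0 in SV129 at Sp, with 1 gene in WT alone at MS, 1 at ES and 1 at Sp. Also added later, merging overlapping calls left 1 gene with more in cKO than in WT at MS and 0 at RS, and 0 with more in SV129 than in WT at MS. The cause of these shifts was not tested, except that equal lengths, score limits and narrower windows leave fewer intervals by construction. All 36 distances of nearest peaks stayed on the same side of 500 bp by edge as by centre. No paired analysis was possible because the lists hold no values per library, and no library could be left out. Read depth is unknown.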
